A study of Mus musculus with 4 samples.

Results

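The immunoglobulin light chain genes were taken as every gene of the deposited table whose symbol begins with Igkv, Iglv, Igkc or Iglc. They were 168 of 31053 genes, namely 160 Igkv genes, 3 Iglv genes, Igkc and 4 Iglc genes. Single-cell RNA sequencing was done on mouse liver in a gene-induced model of hepatocellular carcinoma. Normal liver was taken at week 0 (HCC-NL), and tumor tissue at week 4 (HCC-ES), week 8 (HCC-MS) and a last stage (HCC-LS) that is week 10 in its label and week 12 in the series text. There was 1 sample per time point. No label names the induced gene, the strain or the age of the mice. The 4 samples were deposited as 1 joined matrix whose cell barcodes end in a suffix from 1 to 4, and neither the labels nor the files tie a suffix to a time point. Each suffix is called a library, no library is given a week, and all values describe this pool without a test between libraries. Intervals are exact 95% intervals and cover counting error only, not the spread between animals.

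Each B cell assembles its antibody from heavy chains and light chains, and a light chain is either kappa or lambda. A kappa chain is made from 1 of many Igkv segments joined to an Igkj segment and the constant region gene Igkc, and a lambda chain from an Iglv segment joined to an Iglj segment and its Iglc gene. A B cell normally expresses a single functional light chain, so the cells of 1 clone share their V gene, although many clones can use the same one. Plasma cells transcribe their light chain at very high levels for secretion. In the mouse, kappa chains are far more common than lambda chains.

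The ends of the V segments that the results turn on show how far single genes can be told apart. Sequences are from GENCODE M21 transcripts, an annotation of GRCm38, while the deposited counts are labelled mm9, so no coordinates are given. The Igkv genes lie on chromosome 6, the Iglv and Iglc genes on chromosome 16 and Ighv1-54 on chromosome 12. The first pair is the light and heavy V gene that recurred in library 2, as the last 90 bases of each transcript with no capitals.
Igkv9-124: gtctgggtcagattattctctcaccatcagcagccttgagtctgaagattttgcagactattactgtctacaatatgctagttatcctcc
Ighv1-54: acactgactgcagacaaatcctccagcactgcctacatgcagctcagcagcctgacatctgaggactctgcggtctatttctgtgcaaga
The next set is the Igkv1 genes that led many B cells, with capitals at the bases that differ from Igkv1-110.
Igkv1-110: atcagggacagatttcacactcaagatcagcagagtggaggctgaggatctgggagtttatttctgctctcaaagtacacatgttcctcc
Igkv1-117: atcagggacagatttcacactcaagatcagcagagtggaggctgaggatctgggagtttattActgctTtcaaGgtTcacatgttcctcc
Igkv1-135: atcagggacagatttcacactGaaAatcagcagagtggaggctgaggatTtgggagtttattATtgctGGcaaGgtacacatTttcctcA
Over the whole transcripts Igkv1-110 and Igkv1-117 were 97.5% identical, and Igkv1-110 and Igkv1-135 were 79.9% identical. The Iglv pair below is shown because its members were often counted in the same cell, with capitals at the bases of Iglv2 that differ from Iglv1.
Iglv1: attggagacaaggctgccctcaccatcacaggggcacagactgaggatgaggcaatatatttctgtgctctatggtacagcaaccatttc
Iglv2: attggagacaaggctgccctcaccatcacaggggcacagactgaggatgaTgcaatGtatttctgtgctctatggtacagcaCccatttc
Iglv1 and Iglv2 were 96.7% identical, and Iglv3 was 62.2% identical to Iglv1. The Iglc genes are shown over 120 bases from the start of the constant region, since their counts did not follow the V genes, with capitals at the bases that differ from Iglc3.
Iglc3: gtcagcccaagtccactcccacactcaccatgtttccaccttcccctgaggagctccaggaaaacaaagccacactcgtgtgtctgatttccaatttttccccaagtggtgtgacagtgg
Iglc2: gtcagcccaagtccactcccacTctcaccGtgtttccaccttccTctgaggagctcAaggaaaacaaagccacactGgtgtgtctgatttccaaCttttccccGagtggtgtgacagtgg
Iglc1: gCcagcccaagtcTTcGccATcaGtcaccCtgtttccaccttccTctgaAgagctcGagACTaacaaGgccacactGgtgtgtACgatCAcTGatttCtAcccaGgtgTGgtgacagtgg
Iglc3 and Iglc2 differed at 7 of these 120 bases and were 95.4% identical over the whole transcript. Iglc1 differed from Iglc3 at 27 bases. No label or header says how reads that match several of these genes were counted, so values split between Igkv1-110 and Igkv1-117, between Iglv1 and Iglv2, and between Iglc2 and Iglc3 are uncertain.

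Plasma cells and B cells were recognised from marker genes that include no immunoglobulin gene. A plasma cell needed 2 genes and 3 UMIs of Jchain, Mzb1, Tnfrsf17 and Derl3, and a B cell 2 genes of a list of 11 that includes Cd79a, Cd79b and Ms4a1. In both, the list had to hold at least 0.1% of all UMIs. Of 34783 analysed cells, 33 were plasma cells (6, 13, 9 and 5 in libraries 1 to 4) and 2242 were B cells (782, 251, 776 and 433). The median depth was 7266 UMIs per plasma cell and 1249 UMIs per B cell. Among the plasma cells, 11 had exactly 2 list genes, as did 284 of the B cells (12.7%). T cell, macrophage, endothelial, neutrophil and NK lists each held at most 0.0120% of UMIs in either class in any library. Barcodes that met the gate of such a class had been left out, which by itself keeps these shares low. Hepatocyte genes held 0.0611% to 0.660% of plasma cell UMIs and 0.471% to 0.757% of B cell UMIs across libraries, and their part in the light chain values was not tested.

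Light chain UMIs were concentrated in these 2 classes. They made up 33.6% of all UMIs in plasma cells (39.8%, 38.1%, 22.9% and 38.6% in libraries 1 to 4), 1.33% in B cells (1.51%, 1.29%, 1.17% and 1.36%) and 0.00412% in the 32419 cells outside both gates. Single plasma cells ranged from 3.67% to 64.6%, with a median of 25.2%. Of 143489 light chain UMIs, 61.9% lay in the 33 plasma cells and 29.0% in the B cells. Another 5.71% lay in 89 barcodes that met a B or plasma gate and the gate of another class and were left out. A single library 3 barcode that also met the T cell gate held 7174 of those UMIs, with Igkv14-126 at 99.8% of its V gene UMIs.

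Of the 168 genes, 117 had at least 1 UMI and 51 had none. The annotation calls 103 of the V genes functional IG_V genes, of which 101 were detected, and Igkv1-35 and Igkv7-33 were at 0. It calls 60 V genes pseudogenes, of which 11 were detected. No B cell was led by a pseudogene. The most counted of them was Igkv3-11, with all of its 130 UMIs in plasma cells and 87.7% of those in 1 cell. The table also lists 10 Igkj and Iglj genes, the joining segments, and all of them were at 0 UMIs. The labels' protocols name a 3′ kit, yet V genes outnumbered constant region genes in UMIs, at 9.41 V UMIs per constant region UMI in plasma cells and 1.90 in B cells. These are counts that are not set per length, and the libraries ranged from 6.08 to 23.2 in plasma cells and from 1.15 to 3.59 in B cells.

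Within a cell, V gene UMIs were concentrated on 1 gene. Among cells with at least 5 V UMIs, the leading gene held at least 80% of them in 30 of 33 plasma cells (90.9%, interval 75.7% to 98.1%) and in 1327 of 1663 B cells (79.8%, interval 77.8% to 81.7%). Such a cell is called led by that gene. By library the share was 6 of 6, 13 of 13, 6 of 9 and 5 of 5 plasma cells, and 80.7%, 79.5%, 76.4% and 83.1% of B cells. The median share of the leading gene was 99.1% in plasma cells, with a median of 479 V UMIs per cell, and 100% in B cells, with a median of 12. Since plasma cells hold many more V UMIs, each cell was also thinned to 5 V UMIs, after which 32 of 33 plasma cells (97.0%) and 1439 of 1663 B cells (86.5%, interval 84.8% to 88.1%) were led by 1 gene. At 50% of V UMIs, the leading gene qualified in all 33 plasma cells and in 1646 of 1663 B cells (99.0%). Leaving out library 3, which held the 3 plasma cells without a leading gene, gave 24 of 24.

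**Figure D1:**
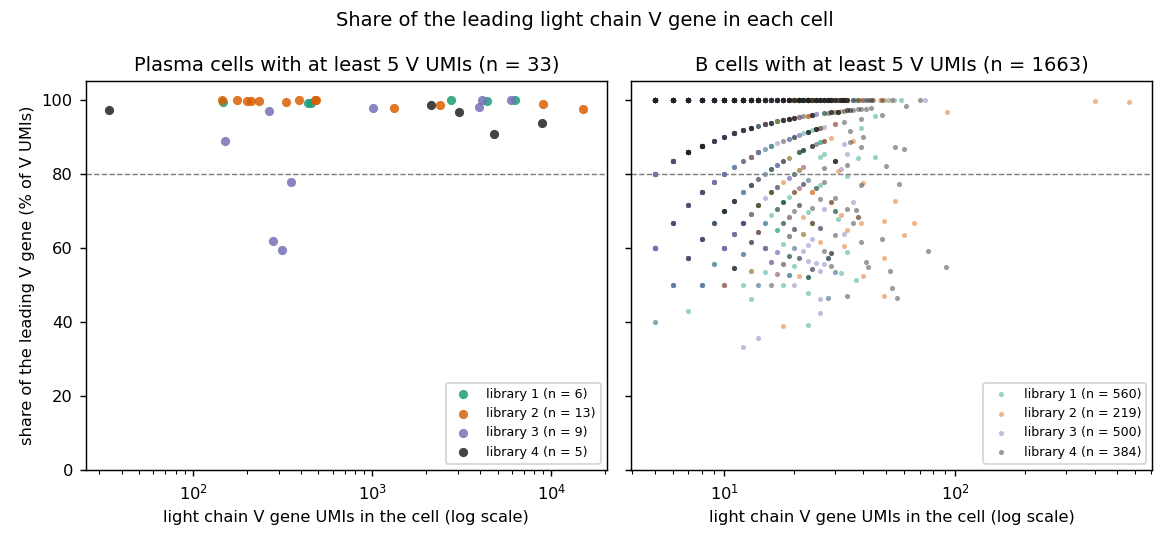
Each point is a cell with at least 5 light chain V UMIs, plasma cells on the left and B cells on the right. The x axis is the V UMIs in the cell on a log scale, the y axis the share of the leading V gene in percent, the colour the library and the dashed line the 80% limit. Of the 33 plasma cells, 3 lie below the line, all in library 3, and B cells lie at 100% or along the steps that low counts allow.

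The V genes of B cells were spread over much of the locus. Of 163 V genes, 81 led at least 1 of the 1327 B cells and 82 led none. Iglv1 led 78 cells (5.88%, interval 4.67% to 7.28%), Igkv1-117 and Igkv1-135 led 77 each (5.80%), Igkv1-110 led 71 (5.35%) and Igkv10-96 led 70 (5.28%). The intervals of these 5 overlap. Igkv12-44 led 48 cells (3.62%), Igkv6-15 led 46 (3.47%), Igkv6-23 led 44 (3.32%), Igkv6-17 led 41 (3.09%) and Igkv9-120 led 38 (2.86%). The 10 genes that led the most cells covered 590 cells (44.5%), and 13 genes were needed to cover 50%. Use was also expressed as an inverse Simpson index, the number of equally used genes that would give the same chance of a match. It was 34.3 genes over all libraries and 33.5, 31.5, 28.1 and 30.5 within libraries 1 to 4. The index counts each cell as a match with itself, which lowers it more where cells are fewer, so it does not rank the libraries. Of pairs of different B cells, 2.77%, 2.61%, 3.30% and 2.98% shared their leading gene in libraries 1 to 4.

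By family, which groups V genes of similar sequence, the 13 Igkv1 genes led 245 B cells (18.5%), the 9 Igkv6 genes 181 (13.6%), the 13 Igkv3 genes 128 (9.65%) and the 12 Igkv12 genes 122 (9.19%). The 33 Igkv4 genes, the largest family, led 67 cells (5.05%). Along the kappa locus, in the order of the annotation and starting beside Igkc, the 4 successive stretches of 40 genes led 32.1%, 15.5%, 15.8% and 36.5% of the B cells led by a kappa gene. The 2 outer stretches held more leading genes as well, at 25 and 20, against 16 and 17 in the inner 2. Each stretch includes any pseudogenes in it, none of which led a B cell. These values are not set against the number of functional genes per stretch.

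Of the 81 genes that led a B cell, 64, 51, 56 and 65 did so in libraries 1 to 4, and the shares of some genes differed between libraries. The most frequent gene was Igkv1-110 in library 1 (27 of 452 cells, 5.97%), Igkv1-110 in library 2 (10 of 174, 5.75%, level with Igkv1-135), Igkv1-117 in library 3 (31 of 382, 8.12%) and Iglv1 in library 4 (28 of 319, 8.78%). Iglv1 was at 5.09%, 2.30%, 6.02% and 8.78% in libraries 1 to 4. Its interval in library 2 (0.630% to 5.78%) lies below that in library 4 (5.91% to 12.4%), while no test stands behind this order. Igkv12-44 was at 4.42%, 4.02%, 4.19% and 1.57%, and Igkv6-23 at 1.99%, 5.17%, 2.88% and 4.70%. The 6 correlations between libraries of the number of cells led, over 163 V genes, ranged from Pearson's r of 0.72 to 0.89. They describe these libraries, share the zeros of unused genes and carry no p. Pairs of B cells of the same library had the same leading V gene in 2.96% of 240469 pairs, and pairs of different libraries in 2.80% of 639332. Which gene came first in a library depended on the setting, as given in the closing section.

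**Figure D2:**
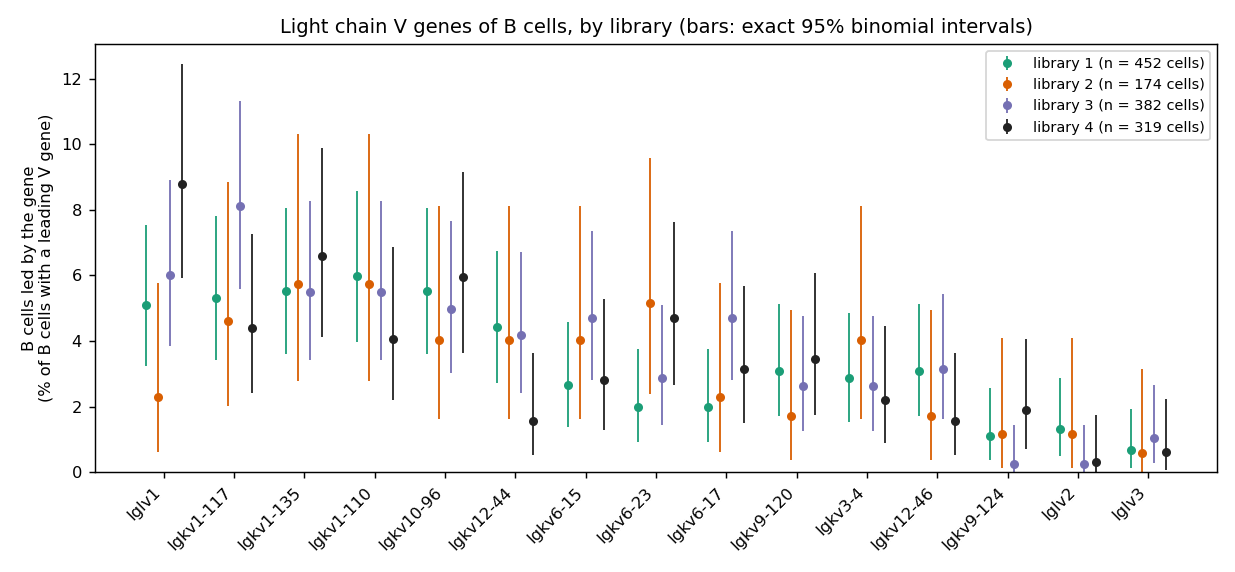
The share of B cells led by each V gene is plotted in percent of the 452, 174, 382 and 319 B cells with a leading gene in libraries 1 to 4, with exact 95% binomial intervals. The genes are the 10 with the most UMIs in B cells, those leading most cells in a library, the Iglv genes and Igkv9-124, and intervals of the libraries overlap for most of them.

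In plasma cells, 17 V genes led the 30 cells, and 11 of them led a single cell. No library reached the 20 led plasma cells that a share by library was to rest on, so only counts are given by library. In library 1 the 6 cells were led by 6 different genes, namely Igkv1-110, Igkv10-96, Igkv3-2, Igkv3-4, Igkv4-57 and Igkv4-70. In library 4 the 5 cells were led by Igkv1-110, Igkv1-135, Igkv4-74, Igkv5-43 and Iglv2. In library 3, Iglv1 led 2 of the 6 cells, and Igkv1-135, Igkv14-111, Igkv2-109 and Igkv6-23 led 1 each. Library 2 stood apart, with Igkv9-124 in 9 of 13 cells, and Igkv12-44, Igkv3-4, Igkv4-57 and Igkv5-48 in 1 each. This count depended on the gate and the depth: it was 2 of 6 with 3 list genes required, 2 of 6 with at least 1000 UMIs and 500 genes, and 1 of 5 with Jchain left out of the gate. Over all libraries Igkv9-124 led 9 of 30 plasma cells (30%) and 14 of 1327 B cells (1.06%, interval 0.578% to 1.76%). Pairs of plasma cells in library 2 shared their V gene in 36 of 78 pairs, all of them among the 9 cells led by Igkv9-124, against 1 of 40 pairs within the other libraries and 4 of 317 between libraries.

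The summed V UMIs of plasma cells came mostly from a few cells. Igkv3-4 led 2 plasma cells but held 26.1% of all their V UMIs, with 14678 UMIs in 1 cell of library 2 and 6277 in 1 cell of library 1. Igkv5-48 led 1 cell of library 2 with 8921 UMIs and Igkv1-135 led 1 cell of library 4 with 8314. Iglv1 had 5957 and 4100 UMIs in its 2 cells of library 3. The 9 cells led by Igkv9-124 had 145 to 487 UMIs of it, so that this gene was 3.29% of the V UMIs of plasma cells.

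The 9 plasma barcodes led by Igkv9-124 shared their other leading antibody genes. All 9 had Ighv1-54 as their leading heavy chain V gene, with 28 to 379 UMIs, and Igha, the constant region of IgA, as their only heavy chain constant gene, with 392 UMIs in all. Igkv9-124 alone was 20.2% to 25.7% of their UMIs, and Igkc had 2 to 43 UMIs in each. They were shallow, with 690 to 1973 total UMIs and 346 to 740 genes, while the other 4 plasma barcodes of library 2 had 12730 to 24234 total UMIs. Jchain, which links IgA subunits and is part of the gate, had 13 to 69 UMIs in each, and Mzb1, a chaperone for antibody assembly, had 1 to 3. Their place in the plasma class therefore rested on few UMIs beside Jchain.

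The same pair of genes was also counted outside these 9 barcodes in library 2. In all, 22 barcodes of library 2 were led by Igkv9-124, of which 9 were plasma cells, 2 B cells, 8 in neither gate and 3 removed by the filters. An Ighv1-54 UMI was present in 21 of the 22. One of the B cells had 398 Igkv9-124 UMIs of 1645 in total (24.2%) and 62 Jchain UMIs. It held 398 of the 703 Igkv9-124 UMIs of all B cells. In neither gate, 2 barcodes had 18.01% and 20.02%. The others in neither gate had 0.0167% to 0.604%, with 5 to 18 Igkv9-124 UMIs and 1 to 5 Ighv1-54 UMIs. The 22 barcode sequences differed from each other by at least 7 of 16 bases, and none of them occurred in another library. In libraries 1, 3 and 4, Igkv9-124 led 7, 1 and 7 barcodes, and none of those had an Ighv1-54 UMI. Heavy chain V genes were seldom counted in libraries 1 and 3, where only 3 and 5 B cells had a leading one, which limits this contrast.

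**Figure D3:**
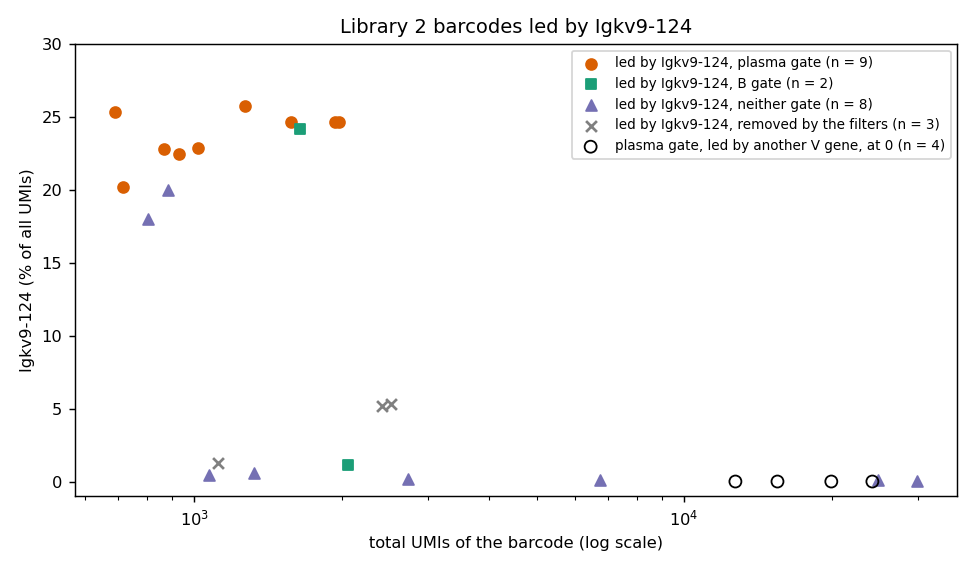
Barcodes of library 2 led by Igkv9-124 are plotted with total UMIs on a log scale against the share of Igkv9-124 in all UMIs, by class, with the 4 other plasma cells of the library at 0. The 9 plasma barcodes lie at 690 to 1973 total UMIs and 20.2% to 25.7%.

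Traces of single antibody genes were also spread over other cells. In library 2, Igkv9-124 was 69.6% of the 1055 V UMIs found in cells outside both gates, and Ighv1-54 was 75.3% of their 182 heavy chain V UMIs. Much of this lay in 2 barcodes, which held 145 and 177 of these 734 Igkv9-124 UMIs. The same 2 barcodes held 51 and 48 of these 137 Ighv1-54 UMIs, so the heavy chain share was mostly not spread. Igkv9-124 was seen in 4.91% of T cells, 5.03% of macrophages and 3.82% of endothelial cells of library 2, at median depths of 3288.5, 2733.5 and 1965 UMIs, and in none of 412, 599 and 1922 such cells of library 1. In libraries 3 and 4 it was at 0 in these classes too. In library 4 the prevalent gene of cells outside both gates was Igkv1-110, at 74.0% of 519 V UMIs, and it was seen in 4.61% of T cells, 2.77% of macrophages and 2.93% of endothelial cells. Ighv1-64 was 50% of the 48 heavy chain V UMIs of the same cells. In libraries 1 and 3 no gene exceeded 13.1% of the V UMIs outside both gates.

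Light and heavy chain V genes could be paired in 111 cells, 30 plasma and 81 B cells, and formed 94 different pairs, of which 85 were seen once. The 81 B cells were 1, 29, 2 and 49 in libraries 1 to 4, of 1327 B cells with a leading light chain V gene. Recurring pairs of B cells could therefore hardly be seen in libraries 1 and 3. Beside Igkv9-124 with Ighv1-54, 8 pairs were seen in 2 cells each. Iglv1 with Ighv1-61 and Igha recurred in 2 plasma cells of library 3, which had 10425 and 13695 total UMIs. Igkv4-57 with Ighv1-26 and Igha was found in 1 plasma cell of library 1 and 1 of library 2. Igkv10-96 with Ighv3-8 was found in a plasma cell of library 1 and a B cell of library 4, and Igkv12-44 with Ighv1-53 in a plasma cell and a B cell of library 2. Igkv14-126 with Ighv11-2 was found in B cells of libraries 2 and 4. In addition, 2 plasma cells of library 3 without a single leading gene shared their most counted antibody genes: Igkv1-135 at 61.9% and 59.4% of V UMIs, Igkv13-84 at 37.4% and 38.7%, Ighv6-3 and Ighg2c. No plasma cell shared its barcode sequence with another library, and of 4 sequences found in B or plasma cells of 2 libraries, 0 had the same leading V gene in both.

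Heavy chain constant genes were called in cells with a leading one. Igha led 22 of 32 plasma cells (68.8%, interval 49.99% to 83.9%), Ighm 4, Ighg2c 3, Ighg2b 2 and Ighg1 1. Ighm, the constant region of IgM, led 184 of 190 B cells (96.8%, interval 93.3% to 98.8%), Ighd 5 and Igha 1. Of the 22 plasma cells led by Igha, 8 had Igkv9-124 as their light chain, since 1 of the 9 such barcodes had only 2 Igha UMIs and was not called.

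Summed over cells, plasma cells were set against B cells for the genes with at least 100 UMIs over both, and a gene was called at a 2-fold ratio of CPM with an interval that excludes 1. Of 62 light chain genes tested, 23 were higher in plasma cells, where 3.79% of all 4269 genes tested were called higher, and 33 were lower, where 49.8% were called lower. The median log2 ratio of plasma over B was -4.89 over the 62 genes and -1.16 over all genes tested. The former is no typical ratio, since 30 of the 62 genes had 0 UMIs in plasma cells. It fell between the ratios of Igkv1-117 (0.00710) and Igkv3-7 (0.160). The genes that were higher rested on few cells: in 21 of the 23, a single cell held over 50% of the plasma cell UMIs, and in 14 of them over 90%. The other 2 were Igkc, whose largest cell held 13.2%, and Igkv9-124, whose largest cell held 18.4%. All 33 lower genes were V genes, and 30 of them had 0 UMIs in plasma cells. Those 30 passed the minimum of 100 UMIs through the B cells alone. Igkv1-117, Igkv2-137 and Igkv3-7, also lower, had 1, 2 and 2 plasma cell UMIs, so they passed it through the B cells as well. Igkv3-11 passed it through the plasma cells alone. Igkv4-74, Igkv4-70, Igkv6-14 and Igkv4-51 had 50, 59, 21 and 6 UMIs in B cells, so they passed it only through the plasma cells too. These calls and the median over the 62 genes therefore follow in part from the filter. With no minimum, 25 were higher and 45 lower of 116.

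Igkc was at 23781 CPM in plasma cells and 1510 CPM in B cells, a ratio of 15.7 (interval 15.2 to 16.4). Iglc1 was at 4746 CPM in plasma cells and 336 CPM in B cells, a ratio of 14.1 (interval 13.0 to 15.3), with 51.8% of its plasma cell UMIs in 1 cell led by Iglv1. Iglc2 was at 3074 CPM in plasma cells and 1609 CPM in B cells, a ratio of 1.91, and Iglc3 at 709 CPM and 1110 CPM, a ratio of 0.639. Neither passed the 2-fold rule. Iglv1 was at 42754 CPM in plasma cells and 688 CPM in B cells (ratio 62.1), Iglv2 at 11290 CPM and 192 CPM (ratio 58.8), and Iglv3 at 171 CPM and 131 CPM (ratio 1.30, not called). The V genes with the highest ratios were the pseudogene Igkv3-11, at least 516-fold higher in plasma cells when its 0 UMIs in B cells are set to the floor of 3 over the group, Igkv4-74 (1039), Igkv4-51 (703), Igkv3-4 (359), Igkv5-48 (214), Igkv4-57 (186), Igkv6-14 (156) and Igkv5-43 (155). Except for Igkv3-4, Igkv4-57 and Igkv3-11, 1 cell held over 99% of the plasma cell UMIs of each. Of the genes that led many B cells, Igkv1-117 had 1 UMI in plasma cells and 1679 in B cells. Igkv6-15 had 0 and 1050, at least 29.4-fold lower in plasma cells, Igkv9-120 had 0 and 857, at least 24.0-fold lower, and Igkv6-17 had 0 and 679, at least 19-fold lower, each with plasma cells at a floor of 3 UMIs over the group. These limits count UMIs, not cells. The 3 genes led 46, 38 and 41 of 1327 B cells, and only 30 plasma cells had a leading gene. An absence from so few plasma cells is no measure of lower expression per cell.

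**Figure D4:**
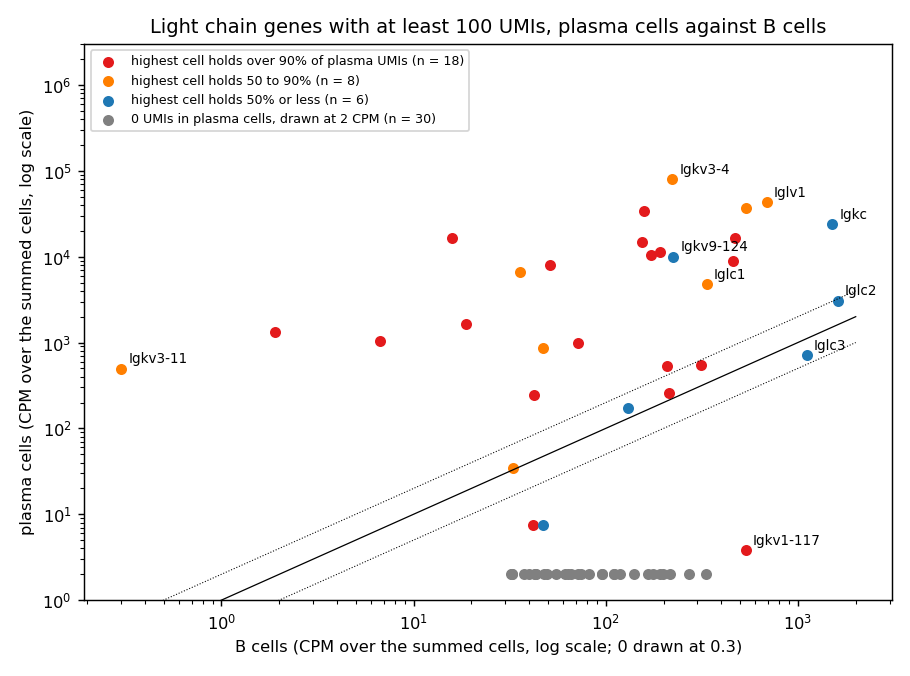
Each point is 1 of the 62 light chain genes tested, with CPM over the summed B cells on the x axis and over the summed plasma cells on the y axis, both log scales. The solid line is equality, the dotted lines are 2-fold, and the colour is the share of plasma cell UMIs in the highest cell. The 30 genes with 0 UMIs in plasma cells are drawn at 2 CPM, and most genes above the lines rest on 1 cell.

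The kind of light chain was read from the V gene and from the constant gene, and these did not give the same answer in B cells. By leading V gene, 27 of 30 plasma cells (90%, interval 73.5% to 97.9%) were kappa. Of these 27, 9 were the library 2 barcodes that shared Igkv9-124, Ighv1-54 and Igha, and the interval treats them as independent cells. Among B cells, 1229 of 1327 (92.6%, interval 91.1% to 94.0%) were kappa. By library the kappa share of B cells was 92.9%, 96.0%, 92.7% and 90.3%. By constant gene, where at least 80% of at least 5 constant UMIs had to be Igkc or Iglc, 19 of 22 called plasma cells (86.4%, interval 65.1% to 97.1%) but only 51 of 548 called B cells (9.31%, interval 7.01% to 12.1%) were kappa. Of the B cells with 5 constant UMIs, 820 of 1368 had neither kind at 80%. Of the plasma cells with 5 constant UMIs, 8 of 30 had neither kind at 80%. All 8 were among the 24 such cells led by a kappa V gene.

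The Iglc genes were counted in B cells whatever their V gene. Among B cells led by a kappa V gene, Iglc2 was seen in 80.8%, Iglc3 in 75.9%, Igkc in 81.3% and Iglc1 in 28.1% of 1229 cells, at a median of 1373 UMIs. Among the 98 B cells led by a lambda V gene, Iglc2 was seen in 74.5%, Iglc3 in 52.0%, Iglc1 in 43.9% and Igkc in 15.3%, at a median of 1305.5 UMIs. In cells that should lack them, Igkc was seen in 4.59% of T cells, 0.527% of macrophages and 0.599% of endothelial cells, and Iglc2 in 0.291%, 0.395% and 0.381%, at median depths of 2197, 1900 and 1179 UMIs. Iglc2 and Iglc3 in kappa B cells lay far above that level. The Igkc share of T cells was 11.7% in library 2, against 1.21%, 1.05% and 2.63% in libraries 1, 3 and 4. Their median depth was 3288.5 UMIs in library 2 and 1582.5, 1957 and 2581 in libraries 1, 3 and 4. In plasma cells the kinds separated further, though not in every cell. The 27 cells led by a kappa V gene all had Igkc, with 5769 UMIs in all, and 584 Iglc2, 264 Iglc1 and 146 Iglc3 UMIs. The 3 led by a lambda V gene had 0 Igkc UMIs and 981 Iglc1, 196 Iglc2 and 11 Iglc3 UMIs. Iglc4 had 1 UMI among the kappa B cells and none in the plasma cells.

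Among the 7 other classes that were gated, plasmacytoid dendritic cells, called from Siglech, Ccr9 and Cox6a2, had the largest share of cells with a light chain UMI (84.4%, against 7.14% in T cells). Iglc3 was seen in 194 of 243 of them (79.8%, interval 74.2% to 84.7%), at 84.5%, 66.7%, 79.6% and 58.8% in libraries 1 to 4. Iglc2 was seen in 16.9% and Iglc1 in 2.47%. Igkc was seen in 30.5% and V genes in 8.23%. Of the 11 B cell markers, 6 were at 0 UMIs in them, among them Cd79a and Ms4a1. Cd79b was seen in 16.0% and Blk in 3.29%, Mzb1 of the plasma cell list in 46.1%, and Ighm in 66.3%. Barcodes that met the B gate had been left out of this class, which limits these markers. Iglc3 reached 1127 CPM in these cells, against 1120 CPM in B cells led by a kappa V gene. After thinning each cell to 500 UMIs, Iglc3 was seen in 37.9% of plasmacytoid dendritic cells (interval 31.7% to 44.3%), in 42.8% of kappa B cells and in 0.191% of endothelial cells. It was seen in 0 of 1373 T cells, with an interval up to 0.268%, where a floor of 3 cells would be 0.219%. Iglc2 after the same thinning was seen in 5.35% of plasmacytoid dendritic cells and 50.8% of kappa B cells, so the ratio of Iglc3 to Iglc2 differed between these 2 classes.

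**Figure D5:**
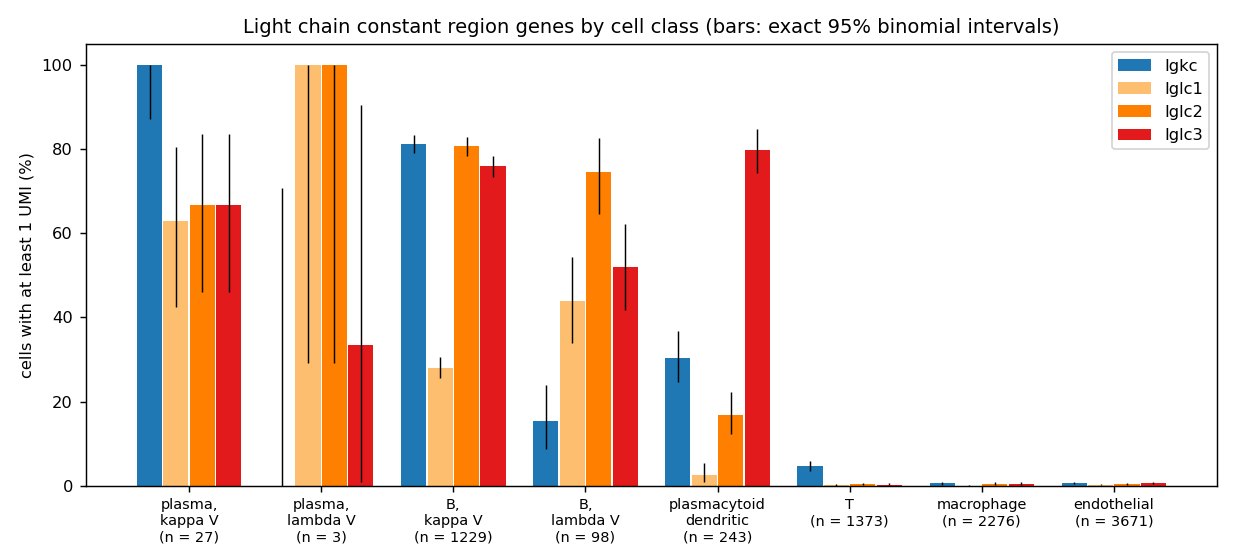
Bars give the share of cells with at least 1 UMI of Igkc, Iglc1, Iglc2 and Iglc3 in percent, by cell class, with exact 95% binomial intervals. Iglc2 and Iglc3 are seen in most B cells led by a kappa V gene, and Iglc3 in 79.8% of plasmacytoid dendritic cells.

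A second V gene was common in B cells. Of 1086 B cells with at least 10 V UMIs, 248 (22.8%) had a second gene at 20% or more of V UMIs, at 22.8%, 21.8%, 27.7% and 19.02% in libraries 1 to 4. In 183 cells both genes were kappa, in 35 one was kappa and the other lambda, and in 30 both were lambda. The most frequent pair was Iglv1 with Iglv2, in 18 cells, followed by Iglv1 with Iglv3 in 8 and Igkv1-135 with Iglv1 in 6. The pairs were otherwise diverse, at 193 different pairs of which 170 were seen in 1 cell. The 2 genes of a cell had a median identity of 68.1%, against 69.4% over all 3240 pairs of genes that led a B cell, and 10.5% of the cells had a pair at 90% identity or more, or 3.67% without the Iglv pairs, against 4.198% of all pairs. These cells had medians of 1399 total UMIs and 18 V UMIs, against 1499.5 and 17 in B cells with no such second gene. Their median doublet score was 0.0282, against 0.0249, after barcodes with high scores had been removed. Whether they hold 2 cells was not tested.

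In plasma cells the second gene was usually Iglv1 at a low share. An Iglv1 UMI was present in 21 of 27 plasma cells led by a kappa gene, at a median of 0.476% and at most 11.3% of V UMIs, and Iglv1 was the second gene in 15 of them. Among kappa B cells, 36 of 1229 (2.93%) had an Iglv1 UMI. Kappa plasma cells were deeper, at a median of 4143 total UMIs against 1373 in kappa B cells, and these shares were not brought to 1 depth.

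The genes that act with the light chains were described in 3 lists. Of 8 heavy chain constant genes, 5 were higher in plasma cells, where 3.79% of all genes tested were, Ighd was lower, where 49.8% were, and 2 had too few UMIs. Of the 5, Igha and Ighg2b were higher in 4 of 4 libraries, Ighg2c in 2 and Ighg1 in 1. Ighg2b, Ighg2c and Ighg1 were seen in 15.2%, 9.09% and 9.09% of plasma cells. Of 542 Ighg2b UMIs, 264 lay in 1 cell of library 1 and 257 in 1 cell of library 2. A single cell held 799 of the 943 Ighg2c UMIs. With 10, 1 and 2 UMIs in B cells, these 3 genes rested on few plasma cells and passed the minimum only through them. Igha was at 35370 CPM in plasma cells and 50.6 CPM in B cells (ratio 699), Ighm at 4344 CPM and 1321 CPM (ratio 3.29, higher in plasma cells in 3 of 4 libraries), and Ighd at 11.4 CPM and 495 CPM (ratio 0.0230). Ighm was seen in only 21.2% of plasma cells, against 76.0% of B cells, so its summed ratio rested on few plasma cells. Of 12 genes of antibody secretion, 11 were higher, beside the same 3.79%, and Derl3 had too few UMIs, although Jchain, Mzb1 and Derl3 were part of the gate. Of those not in the gate, Xbp1, the transcription factor of the secretory program, had a ratio of 25.7, Edem1, which acts in clearing misfolded proteins, 15.8, Creld2 12.7, the chaperone Hsp90b1 8.35, and the chaperone Hspa5 2.37, all higher in plasma cells in 4 of 4 libraries. Of 7 genes of light chain assembly and the surrogate light chain, 6 had too few UMIs, among them Rag1 with 2 UMIs in B cells and Rag2, Dntt, Vpreb2 and Igll1 with 0. Vpreb3 was lower in plasma cells, at 83.4 CPM against 292 CPM in B cells (ratio 0.286), where 49.8% of all genes tested were lower. By detection it went the other way, at 39.4% of plasma cells and 28.8% of B cells, with median depths of 7266 and 1249 UMIs.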

How the data were processed

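Livers were digested and single cells were sequenced with a 10x Genomics 3′ kit, per the labels' protocols. The authors deposited UMI counts per gene and barcode, unnormalized, and the file headers name Cell Ranger 6.0.1 as their source. The build is mm9 per the submitters' processing notes, with no annotation named. The 4 libraries hold 9222, 9027, 10316 and 9507 barcodes, with medians of 1304, 3131, 1318 and 2484 UMIs. Across libraries, 710 barcode sequences occurred more than once (1425 barcodes), among them 0 of the plasma cells and 100 of the B cells.

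From these counts, barcodes with at least 500 UMIs, 200 genes and under 20% mitochondrial UMIs were kept. Doublets were scored with Scrublet as in scanpy 1.11.5, separately by library, and scores above 0.25 removed 1367 of 36150 barcodes. Classes came from marker gates, not from clustering, and a barcode that also met the gate of 1 of 7 other classes was left out. A barcode that met both gates went to the list with more UMIs (12 barcodes, 9 plasma and 3 B). Counts were summed per class, with exact binomial intervals (scipy 1.17.1) and the conditional binomial interval for ratios, whose step was tested on simulated data. Sequences were compared with Biopython 1.88. All comparisons have 1 pooled sample and no test. Named genes are Igkc, Iglc1 to Iglc3 and the Iglv genes, the 10 V genes with the most UMIs in each class, those leading a library, up to 10 called V genes with the largest ratios in each direction, and the 3 lists; other named genes were chosen after their values were seen. The members and lists were chosen with earlier results of these data known. Alternatives were depth, gate, doublet, threshold and scaling choices and leaving out each library. Differences between weeks were not analysed here.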

Additional observations from a re-analysis of the deposited data

Results flagged for a closer look

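In library 2, 12 barcodes outside the plasma cells were led by Igkv9-124 and also had an Ighv1-54 UMI. They were 1 B cell, 8 in neither gate and 3 removed by the filters. Their Igkv9-124 share ranged from 0.0167% to 24.2% of UMIs, so some held only traces. No barcode led by Igkv9-124 in the other libraries had an Ighv1-54 UMI, though heavy chain V genes rarely led a B cell in libraries 1 and 3. The 12 barcodes were picked out because, apart from the B cell, the signal lies in barcodes that the comparisons do not use. Iglc3 was likewise seen in 194 plasmacytoid dendritic cells of 243, a class outside the B lineage, against 3 of 1373 T cells. No explanation of either was tested.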

How the results depend on the processing

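In all, 99 values were recomputed under 19 settings. Of these, 88 stayed within the interval of the value reported, or within 1.5 times of it for the count of genes. The other 11 did not. Leaving out cells with over 20% hepatocyte list UMIs removed none of the 33 plasma and 2242 B cells. The values of that setting are among the 88 and could not differ. The kappa share of B cells by constant genes, reported as 9.31%, was 5.15% with at least 10 constant UMIs, 6.16% with at least 1000 UMIs and 500 genes, 15.0% with cells thinned to 5 constant UMIs, 6.95% to 11.4% with 1 library left out, and 92.6% when called from the V gene, a setting chosen after seeing the data. The share of B cells led by 1 V gene (79.8%) was 77.3% with at least 10 V UMIs, 99.0% at 50% of V UMIs, 86.5% after thinning and 78.8% to 81.3% with 1 library left out. For plasma cells (90.9%) it was 100% at 50% of V UMIs and 85% to 100% with 1 library left out, reaching 100% without library 3. The leading gene of library 1 B cells held 10.1% with at least 10 V UMIs, against 5.97%. The gene in first place changed to Igkv1-135 in libraries 1 and 2 at 50% of V UMIs (6.50% and 6.91%), to Igkv1-117 in library 1 at the higher depth minimum (7.06%) and to Igkv1-135 in library 4 with at least 10 V UMIs (7.72%). The number of light chain genes higher in plasma cells was 23, and 19 to 27 under every setting run. It was 22 without the barcodes led by Igkv9-124, also chosen after seeing the data. Without the same barcodes, 21 of 24 plasma cells (87.5%) were led by 1 V gene and 13 of 16 called ones (81.25%) were kappa by constant gene. The cause of these shifts was not tested.

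No paired analysis was possible because no barcode suffix could be paired with a sample. The 33 plasma cells limit every share in that class, and the stricter gate left 22 and the gate without Jchain 21. Differences between libraries cannot be told apart from depth, dissociation or time point. The median of 9 V UMIs per B cell limits how small a second gene could be seen.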
